A study of Mus musculus with 14 samples.

Results

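The comparison described here is between intestinal stem cells sorted from mouse organoids after 6 hours of Isx-9 and the same kind of cells after 6 hours of DMSO, the solvent. It consists of 4 bulk RNA-seq samples out of the 14 samples of the series, 2 per treatment, and of the 27399 genes counted in each of them. Organoids are small bodies of gut epithelium kept in culture by the division of their own stem cells. They carried an Lgr5-EGFP knock-in in both groups, which marks cells that express the stem cell receptor Lgr5, and grew in a medium with EGF, Noggin and R-spondin1. From the second day after passaging they received 25 µM Isx-9 or 0.05% DMSO. The gate of the sort, the number of organoid lines and the source of the replicates are not given in the labels, so the p-values measure the spread between these libraries, which may be technical. The ATAC-seq samples of the series were not analysed here, and the single-cell libraries serve for a comparison at 6 days that closes the description.

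As background, the crypt stem cell of the intestine divides fast and makes large amounts of ribosomes and protein, under the control of Wnt signals and of the receptor Lgr5. Its daughters become absorptive enterocytes or secretory cells, among them the enteroendocrine cells, which share vesicle and excitability genes with neurons and depend on the transcription factor Neurog3. Isx-9 is a small molecule known for driving neural progenitors towards neurons. The question asked of the 2 treatments was which families of genes, across the whole genome, had changed after the first hours of exposure.

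The libraries were of like depth, with 18909542 to 19487264 counts. A count above 0 was found for 20942 and 21237 genes in the DMSO libraries and for 23695 and 23881 in the Isx-9 libraries. More genes were thus detected with Isx-9 within the same range of depth. Mitochondrial genes took 6.42% and 7.01% of the counts with DMSO and 7.2% and 8.02% with Isx-9. The stem cell label was checked against its markers. Lgr5 stood at 378 and 341 CPM, counts scaled to the library total and to its TMM composition factor, with DMSO and at 312 and 320 with Isx-9, and Olfm4, another stem cell marker, at 6068 and 5895 against 4781 and 3646. The summed level of 10 stem cell markers was 10197 and 10078 CPM with DMSO and 7848 and 6574 with Isx-9, much of it Olfm4. Of the 10, 7 fell and 1 (Tnfrsf19) rose. Olfm4 lost its call when scaled by library size alone (log2 fold change -0.38) and with a filter of 1 CPM in all 4 libraries (-0.41). Ascl2 lost its call in both of these fits (-0.16 and -0.19) and by DESeq2 (-0.28). Of the markers of Paneth cells (6), goblet cells (7) and enterocytes (7), 0 passed edgeR's test described below in either direction, with 0 at an unadjusted p under 0.05 and 0 called by DESeq2. Markers of cells outside the epithelium were low but several rose. Dcn and Col3a1, which define fibroblasts, stayed at or below a mean of 0.149 CPM in both groups, and the 3 immune markers that were counted summed to 0.484 and 1.1 CPM with DMSO and 1.84 and 2.94 with Isx-9. The 2 fibroblast markers that were tested, Col1a1 and Pdgfra, rose, and the 5 counted markers of that list summed to 1.4 and 1.32 CPM with DMSO and 18.9 and 11.8 with Isx-9. All 8 neuron markers rose, from a sum of 6.78 and 8.1 CPM to 104 and 75.8 CPM, and the 2 tested endothelial markers, Pecam1 and Kdr, rose within a list that summed to 0.431 and 1.27 CPM with DMSO and 4.28 and 4.49 with Isx-9. Smooth muscle markers had 2 of 3 tested members higher, Des from a mean of 0 to 4.44 CPM and Myh11 from 0.0275 to 1.02 CPM. The glial list had 1 of 3 higher, S100b. Markers near 0 in DMSO, such as Map2, Syn1, Pdgfra, Kdr, Des and Myh11, could enter the test only through the Isx-9 libraries. Their calls were fixed by the low-count filter described below. Of 901 tested genes with a mean under 0.1 CPM in DMSO, 901 were called higher. Tuft cell markers had 2 of 4 tested members higher, Pou2f3 and Avil, and summed to 14.1 and 15.5 CPM with DMSO and 38.5 and 32.7 with Isx-9. Of 7 enteroendocrine markers 0 rose and 1 fell. Of 8 general markers of epithelium 7 fell and 0 rose, and they summed to 5954 and 5523 CPM with DMSO and 3999 and 4379 with Isx-9. These 8 and most of the stem cell markers had means above 100 CPM with DMSO, a level at which 59.5% of all tested genes fell. In such bulk samples, a change in the share of cells of a type and a change in RNA per cell cannot be told apart.

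After 6 hours of Isx-9, 4813 of 17418 tested genes were higher and 3597 lower (edgeR's quasi-likelihood test, Benjamini-Hochberg adjusted p under 0.05), which is 27.6% and 20.7% of the genes tested. Rose and fell are used below of genes that passed this test. For a gene under 1 CPM in a DMSO library, rose only describes the levels given. The low-count filter described next may have fixed the call of such a gene. Of tested genes with a mean of 0.1 to 1 CPM in DMSO, 49.7% rose and 0.462% fell. The Isx-9 and DMSO libraries did not overlap for any of the 8410 genes called. With 2 libraries per group this follows largely from passing the test and adds no support of its own. The share without overlap over all tested genes is not given. The rises were large and the falls small: 3360 genes rose at least 2-fold and 152 fell that far. A low-count filter lets a gene that is silent in DMSO enter the test only if it is present with Isx-9, so the families below are counted among members that stood at 1 CPM or more in both DMSO libraries. Of the 13623 genes at that level, 18.9% rose and 26.3% fell, with a median log2 fold change of -0.10, and these shares are the background for each family. For silent members a plain count is given in place of a test: 6587 genes lay under 0.1 CPM in both DMSO libraries, and 461 of them (7.00%) reached 1 CPM or more in both Isx-9 libraries. Such genes are called switched on. The reverse, from 1 CPM or more in both DMSO libraries to under 0.1 CPM in both Isx-9 libraries, was found for 0 genes.

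The direction of the calls followed the level of the gene. Among genes with a mean of 1 to 10 CPM in DMSO, 29.9% rose and 2.7% fell. At 10 to 100 CPM the shares were 18.2% and 26.9%. Above 100 CPM they were 4.44% and 59.5%. Shares of all genes matched to the level of a family's members were not counted, for rising or falling families. Because CPM are shares of a total, these counts describe relative levels, and the sum of all RNA was not measured. Without the TMM composition factors, the median log2 fold change of all tested genes moved from 0.02 to 0.14, and the split of calls moved from 4813 higher and 3597 lower to 5518 higher and 2168 lower. Many of the falls were therefore of a size that the scaling can shift across the threshold.

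**Figure D1:**
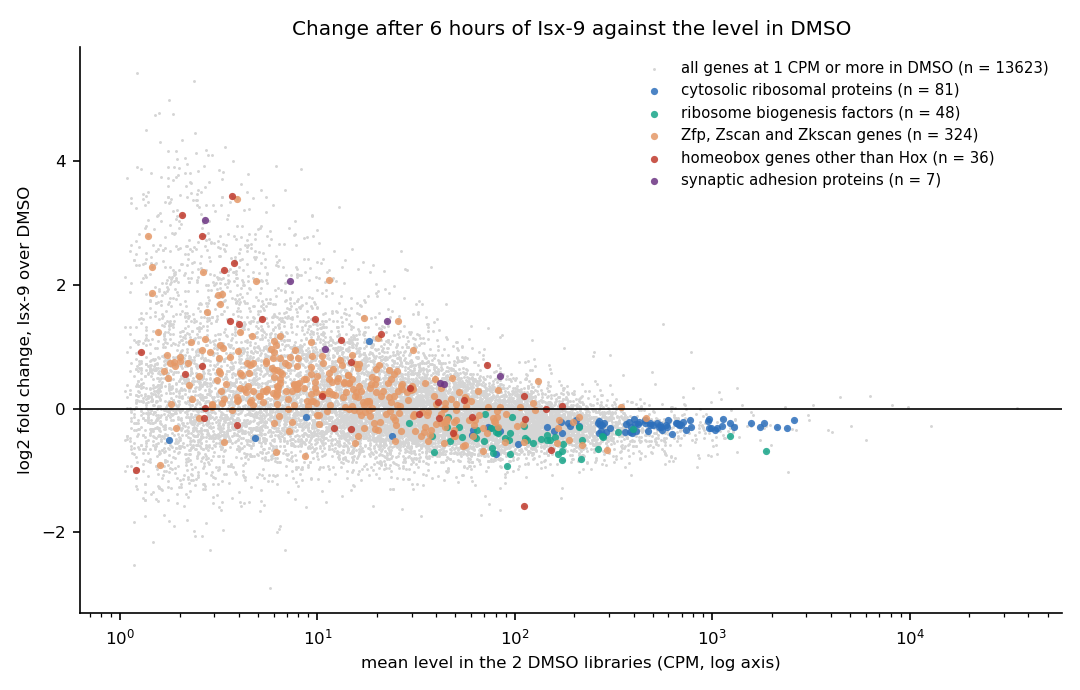
Each point is a gene at 1 CPM or more in both DMSO libraries, with its mean DMSO level in CPM on a log axis and its log2 fold change with Isx-9; 5 families are coloured. Cytosolic ribosomal proteins and ribosome biogenesis factors lie mostly below 0 at the abundant end, and homeobox and synaptic adhesion genes lie mostly above 0 at lower levels.

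Members of the families that moved in opposite directions are shown first with the sequence around their transcription start. Sox11, a transcription factor of neural progenitors, was at 0.108 and 0.22 CPM with DMSO and at 50.1 and 34.6 CPM with Isx-9. Its log2 fold change was 7.96 ± 0.33 (SE, edgeR). With 6 reads over both DMSO libraries it could pass the low-count filter only through the Isx-9 libraries, so no p-value is given. Map2, a microtubule-associated protein of dendrites, was at 0 and 0.0551 CPM with DMSO and at 25.4 and 19.5 CPM with Isx-9. Its DMSO counts amounted to 1 read, and the ratio of counts was 823 (exact 95% interval 147 to 32544, counting error only). Both genes were near silence in DMSO and their groups lay far apart. Ncl, which encodes nucleolin, a factor of ribosome production, fell from 1918 and 1842 CPM to 1175 and 1163 CPM (log2 fold change -0.69 ± 0.07 SE; edgeR, adjusted p = 2.0e-07). Pigr, the receptor that carries secreted antibodies across the epithelium, fell from 2474 and 2347 CPM to 1217 and 1154 CPM (-1.02 ± 0.07 SE; edgeR, adjusted p = 1.3e-09). For this abundant pair the DMSO and Isx-9 libraries also lay apart, at much smaller fold changes.

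The promoters of these genes, taken from RefSeq on GRCm38.p6, span 250 bases before to 50 bases after the annotated start. They are shown because they differ in CpG content, the dinucleotide that marks the promoters of widely used genes. The capitals mark each CG, which reads the same on both strands.
Sox11: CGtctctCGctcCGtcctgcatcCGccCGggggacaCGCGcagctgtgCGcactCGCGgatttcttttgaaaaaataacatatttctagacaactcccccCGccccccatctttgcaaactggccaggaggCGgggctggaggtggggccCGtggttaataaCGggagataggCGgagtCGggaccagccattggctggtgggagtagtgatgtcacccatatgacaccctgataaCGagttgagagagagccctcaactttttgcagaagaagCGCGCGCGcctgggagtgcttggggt
Map2: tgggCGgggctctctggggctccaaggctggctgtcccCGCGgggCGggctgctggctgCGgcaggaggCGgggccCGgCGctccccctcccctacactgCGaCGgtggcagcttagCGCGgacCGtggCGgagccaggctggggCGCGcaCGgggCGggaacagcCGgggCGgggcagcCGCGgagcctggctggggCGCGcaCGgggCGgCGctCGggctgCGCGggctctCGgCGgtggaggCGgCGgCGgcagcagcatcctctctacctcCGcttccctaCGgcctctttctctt
Ncl: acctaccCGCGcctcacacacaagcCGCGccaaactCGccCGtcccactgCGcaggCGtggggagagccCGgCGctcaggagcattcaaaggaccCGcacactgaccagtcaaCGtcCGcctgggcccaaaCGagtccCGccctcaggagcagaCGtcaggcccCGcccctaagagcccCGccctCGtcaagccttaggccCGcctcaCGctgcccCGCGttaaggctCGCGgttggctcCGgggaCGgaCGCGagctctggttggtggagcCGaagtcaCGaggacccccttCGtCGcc
Pigr: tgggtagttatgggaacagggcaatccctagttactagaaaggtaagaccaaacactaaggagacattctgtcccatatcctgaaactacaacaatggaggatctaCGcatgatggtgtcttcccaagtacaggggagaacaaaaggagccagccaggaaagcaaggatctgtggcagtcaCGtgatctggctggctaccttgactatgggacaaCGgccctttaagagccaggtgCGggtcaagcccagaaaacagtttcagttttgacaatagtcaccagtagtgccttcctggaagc
They lie at chr12:27342669-27342968 (minus strand), chr1:66175079-66175378 (plus strand), chr1:86359406-86359705 (minus strand) and chr1:130826434-130826733 (plus strand). Sox11 had 21 CG, Map2 37, Ncl 33 and Pigr 4. Over the 32851 promoters in the same table, 94.6% held at least 1 CG and the median was 7, with quartiles of 3 and 20. A silent gene that rose sharply (Map2) and an abundant gene that fell (Ncl) both stood above the upper quartile, and 94.4% and 91.4% of the promoters had fewer CG than theirs. Pigr lay in the lower part of the range, with 31.4% of the promoters below it.

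**Figure D2:**
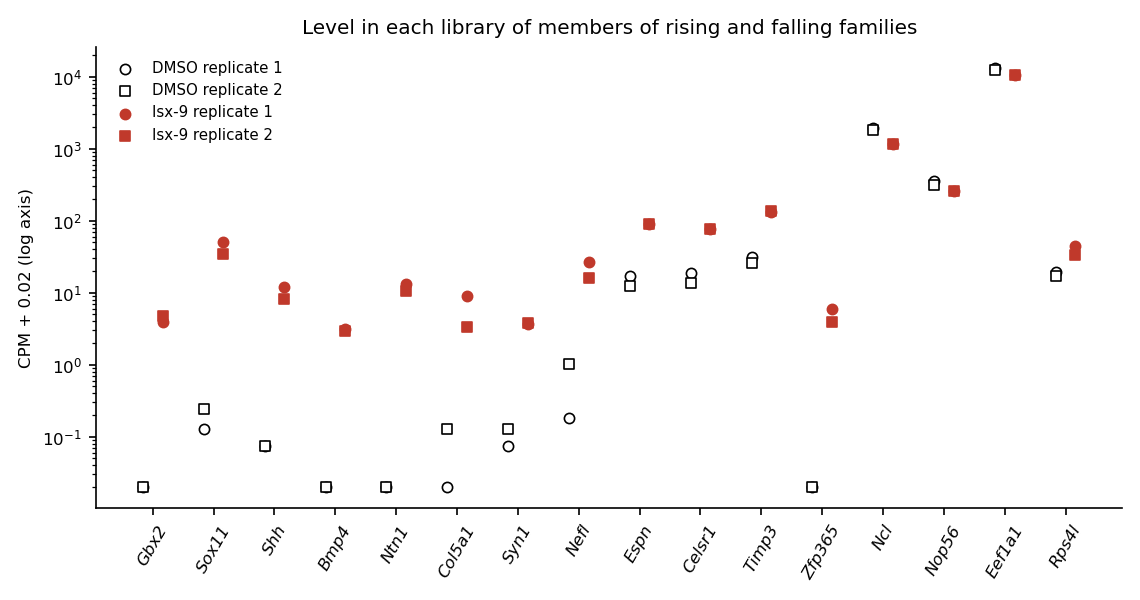
The points give the level of single genes in each of the 4 libraries (CPM + 0.02, log axis; open symbols DMSO, filled symbols Isx-9, circles replicate 1 and squares replicate 2). The Isx-9 points lie above the DMSO points for the genes from Gbx2 to Zfp365 and for Rps4l, and below them for Ncl, Nop56 and Eef1a1.

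Among transcription factors, the homeobox genes outside the Hox clusters stood out by number. Homeobox proteins bind DNA through a shared domain and pattern tissues in the embryo. Of 142 counted, 36 were at 1 CPM or more in both DMSO libraries and 80 in both Isx-9 libraries, against 13623 and 15508 for all genes. Of the 36, 15 rose and 3 fell, 41.7% and 8.33%, where the background is 18.9% and 26.3%. A further 19 of 69 silent members were switched on. Gbx2, a patterning gene of the hindbrain border, had 0 counts in both DMSO libraries and reached 3.94 and 4.79 CPM, which makes it at least 53.4-fold higher when 3 counts in the DMSO group are taken as the floor. Tshz3 reached 8.37 and 6.98 CPM from 0 (at least 94-fold higher) and Dmbx1, of the developing midbrain, 3.49 and 3.94 CPM (at least 45.5-fold higher). The lowest log2 fold change among the 36 belonged to Isx, the intestine-specific homeobox gene, which fell from 111 and 111 CPM to 37.3 and 36.9 CPM (log2 fold change -1.58 ± 0.09 SE; edgeR, adjusted p = 1.1e-10). Hox genes stayed at low levels: 4 of 29 were at 1 CPM or more with DMSO and 6 with Isx-9, and 0 of 16 silent members were switched on. Of the 13 tested, 5 rose and 0 fell, and 0 of these 5 were at 1 CPM or more in both DMSO libraries. Members with 0 counts in DMSO could enter the test through the Isx-9 libraries alone, so their calls were fixed by the filter. Hoxc6 reached 1.3 and 0.798 CPM and Hoxd13 0.548 and 1.45 CPM from 0 counts. Hoxa7 stood at 0.861 and 0.606 against 3.84 and 1.55 CPM, and its call was lost without Isx-9 replicate 1.

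SOX factors, which set progenitor states, showed 6 of 18 members at 1 CPM or more with DMSO and 13 with Isx-9, and 4 of the 6 rose while 0 fell. Sox3 went from 0.269 and 0 to 9.42 and 6.14 CPM, Sox7 from 0.323 and 0.0551 to 5.43 and 2.99 CPM, and Sox21 from 1.56 and 0.716 to 7.22 and 5.49 CPM. Eomes and Tbx1, T-box factors of early mesoderm and of the pharynx, went from means under 1 CPM to 16.3 and 14.8 CPM and to 8.67 and 9.63 CPM. The GATA family split. Gata2, a factor of blood and neural precursors, was at 0 in both DMSO libraries and at 11.5 and 5.59 CPM with Isx-9, at least 104-fold higher. The 3 members that the gut epithelium uses all fell: Gata6 from 143 and 139 to 85.4 and 96.1 CPM (-0.63 ± 0.09 SE; edgeR, adjusted p = 6.3e-06), Gata5 by 0.42 and Gata4 by 0.27 on the log2 scale. Gata5 lost its call without Isx-9 replicate 2, where the log2 fold change was -0.37. Gata4 lost its call with library size alone (-0.15), with a filter of 1 CPM in all 4 libraries (-0.18) and without Isx-9 replicate 1 (-0.16).

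Sex steroid receptors appeared among the nuclear receptors. Esrrb, an orphan relative of the estrogen receptors, went from 0 to 5.43 and 4.04 CPM, at least 58-fold higher. Pgr, the progesterone receptor, went from 1 read over both DMSO libraries to 6.93 and 3.79 CPM, and Esr2 from 3 reads to 6.33 and 4.89 CPM (ratio 68.7, exact 95% interval 23.2 to 335). The nuclear receptors already expressed did not move as a group, with 6 of 34 higher and 11 lower, and 3 higher without Isx-9 replicate 1. The bHLH factors of neurons and secretory cells included Neurog3, at 6.35 and 10.4 CPM against 22.7 and 18.9 CPM (1.31 ± 0.22 SE; edgeR, adjusted p = 1.2e-04), Olig1, at 1.83 and 0.882 against 14.1 and 15.8 CPM, and Mesp2, at 1.78 and 0.441 against 6.83 and 5.69 CPM. Of 8 members expressed in DMSO, 3 rose and 2 fell. The falls numbered 0 with library size alone, by DESeq2, with the filter of 1 CPM in all 4 libraries and without DMSO replicate 1 or either Isx-9 replicate, and the median log2 fold change turned from -0.17 to 0.32 without DMSO replicate 2 and to 0.03 with that filter. Of 17 ETS genes expressed in DMSO, 1 rose and 5 fell, 5.88% and 29.4%, where the background is 18.9% and 26.3%. With library size alone 3 rose and 3 fell. Ets1 rose from 3.93 and 4.96 to 20.8 and 16.2 CPM. The epithelial member Ehf fell from 396 and 399 to 270 and 249 CPM. Elk3, under 1 CPM in 1 DMSO library, went from 1.99 and 0.496 to 26.3 and 21.8 CPM.

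The largest family of factors, 404 zinc finger genes of the Zfp, Zscan and Zkscan series, moved in small steps. Many of them are repressors that bind through tandem zinc fingers. Of 324 expressed in DMSO, 77 rose and 31 fell, 23.8% and 9.57%. The median log2 fold change was 0.24, against -0.10 for all genes at 1 CPM or more in both DMSO libraries. Both of the family's shares lay between those of all tested genes at 1 to 10 CPM and at 10 to 100 CPM. Those were 29.9% and 2.7%, and 18.2% and 26.9%. The number that rose was 37 without Isx-9 replicate 1, 49 without DMSO replicate 1, 50 without Isx-9 replicate 2 and 49 by DESeq2, and the number that fell was 16 with library size alone, 20 with the filter of 1 CPM in all 4 libraries, 19 without Isx-9 replicate 1 and 17 without Isx-9 replicate 2. Zfp365 (5.88 and 3.89 CPM), Zkscan2 (4.83 and 3.99 CPM) and Zfp521 (2.39 and 2.15 CPM) had 0 counts with DMSO. Nearly identical copies within this family may share reads, so single members are uncertain.

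Chromatin regulators changed in both directions. Of 53 histone lysine methyltransferases and demethylases expressed in DMSO, 29 fell and 7 rose (3 without Isx-9 replicate 1), a share of 54.7% lower, and of 27 SWI/SNF and CHD remodellers 15 fell and 3 rose. The latter falls numbered 8 with library size alone and 8 without Isx-9 replicate 2, and the rises 1 when DMSO replicate 2 or Isx-9 replicate 1 was left out. The shares lower of these 2 groups, 54.7% and 55.6%, lay between those of all tested genes at 10 to 100 CPM (26.9%) and above 100 CPM (59.5%). Setd1b, a writer of H3K4 methylation, fell from 80.2 and 89 to 41.2 and 46.7 CPM (-0.94 ± 0.10 SE; edgeR, adjusted p = 4.3e-07). Ehmt1 and Ehmt2, which form the H3K9 methyltransferase complex that works with the neuronal repressor REST, fell by 0.51 and 0.64 on the log2 scale. Rest itself, at 64.9 and 68.3 against 73.8 and 58.6 CPM, did not pass the test, whereas its corepressor Rcor2 rose from 34.8 and 38.1 to 96.1 and 91.9 CPM (1.37 ± 0.10 SE; edgeR, adjusted p = 1.9e-09). Other remodeller subunits rose from low levels. Chd5 rose from 0.484 and 0.937 to 8.67 and 4.94 CPM, Dpf1 from 0.161 and 0.661 to 6.73 and 8.38 CPM, and Smarca1 from 1 read to 3.74 and 2.79 CPM.

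Tet1, which oxidises methylated cytosine, had the largest rise among the DNA methylation genes. It stood at 4.52 and 4.46 CPM with DMSO and at 40.2 and 43.7 CPM with Isx-9, with replicates close together (3.22 ± 0.17 SE; edgeR, adjusted p = 1.7e-11). The methyl-CpG readers Mbd3 and Mbd1 fell by 0.64 and 0.61 on the log2 scale. In the Polycomb group, 10 of 34 members rose and 7 fell. Those numbers were 6 higher without Isx-9 replicate 1 and 4 lower without Isx-9 replicate 2. Phc1 rose from 24.9 and 18.2 to 44.6 and 40 CPM and Cbx6 from 74.2 and 68.4 to 118 and 121 CPM. Eed, a core subunit of the complex that methylates H3K27, fell from 79.1 and 82 to 49.8 and 54.8 CPM, and the enzyme Ezh2 did not pass the test (147 and 149 against 138 and 133 CPM). The histone deacetylases were mixed as well, with Hdac7 higher by 0.62 and Hdac10, Hdac11 and Hdac3 lower by values between -0.47 and -0.77. Among linker histones, H1f2 rose by 1.82 on the log2 scale, to 71.1 and 56.2 CPM, H1f10 from 0.0538 and 0.441 to 7.42 and 5.44 CPM, and H1f0, at a higher level, from 306 and 297 to 541 and 559 CPM.

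**Figure D3:**
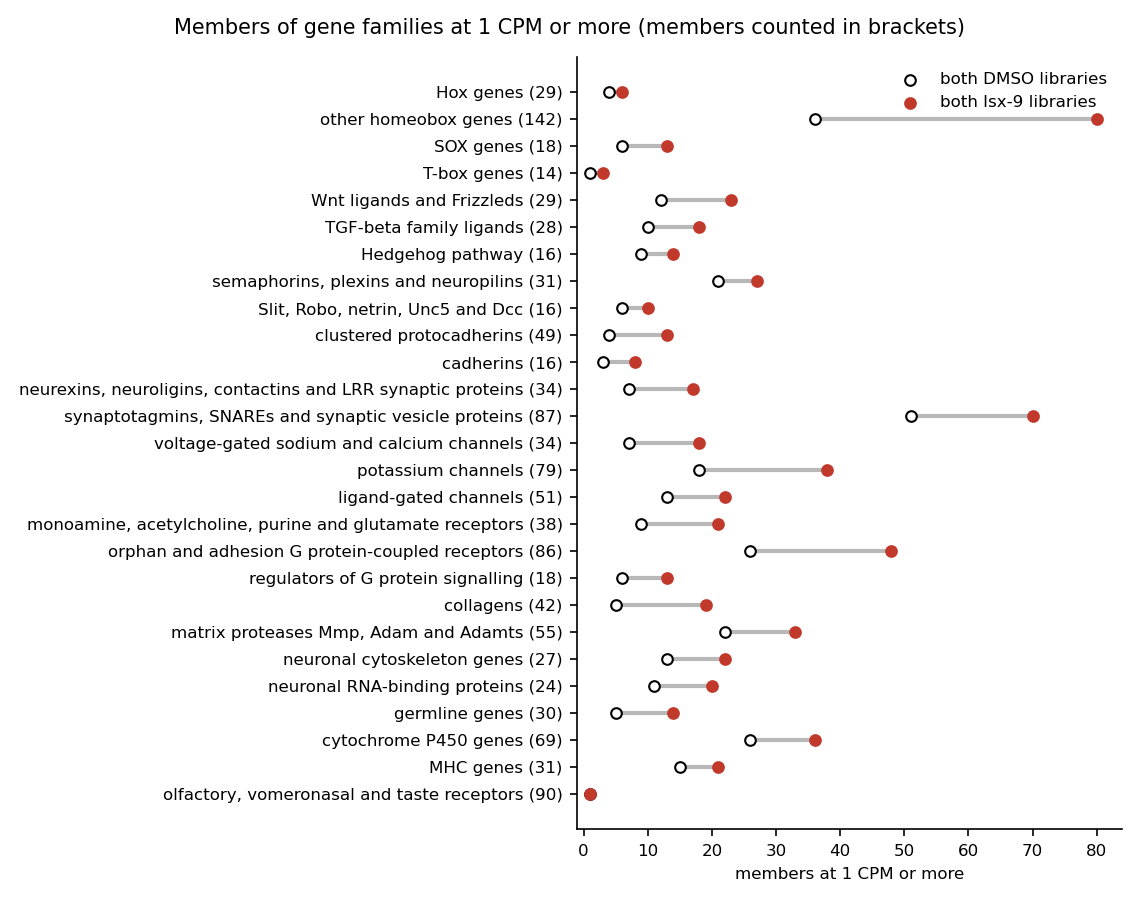
For each family the open circle gives the number of members at 1 CPM or more in both DMSO libraries and the filled circle the number in both Isx-9 libraries, with the members counted in brackets. The homeobox genes outside the Hox clusters went from 36 to 80 and the potassium channels from 18 to 38, while the olfactory, vomeronasal and taste receptors stayed at 1 of 90.

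Secreted signals and their receptors rose in several pathways at once. Wnt ligands and their Frizzled receptors, the main growth signal of the crypt, counted 12 of 29 members at 1 CPM or more with DMSO and 23 with Isx-9, and 7 of the 12 rose while 0 fell. Wnt7b had 0 counts in both DMSO libraries and 13.3 and 7.53 CPM with Isx-9 (at least 127-fold higher). Wnt7a reached 5.48 and 2.69 CPM, Wnt10a 2.84 and 2.29 CPM and the receptor Fzd10 4.48 and 1.95 CPM, each from 0 counts. In this family 6 of 10 silent members were switched on. Hedgehog genes, which in the gut pass signals from epithelium to mesenchyme, showed a rise of the ligand and of the transcription factors that read it. Shh went from 2 reads over both DMSO libraries to 11.9 and 8.18 CPM (ratio 184, exact 95% interval 50.7 to 1528). Gli1, a target and effector of the pathway, went from 3 reads to 18.8 and 17.6 CPM (ratio 222, interval 75.8 to 1081), and Gli2 and Gli3 from 0 counts to 2.89 and 1.2 CPM and to 3.69 and 2 CPM. Of the 9 members expressed in DMSO, 4 rose and 0 fell.

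Of 28 TGF-beta family ligands, 10 were at 1 CPM or more with DMSO and 18 with Isx-9. Among the 10, 6 rose and 1 fell. Bmp4, a ligand that opposes stem cell renewal in the crypt, had 0 counts with DMSO and 3.14 and 2.89 CPM with Isx-9, at least 36.9-fold higher. The inhibin chains Inhbb and Inha each went from 1 read to 9.57 and 5.09 CPM and to 2.84 and 2.79 CPM. Fgfr1, the FGF receptor typical of mesenchyme and neurons, stood at 0 and 0.661 CPM with DMSO and at 32.7 and 23.6 CPM with Isx-9. Its log2 fold change was 6.40 ± 0.66 (SE, edgeR). Fgfr1 could pass the low-count filter only through the Isx-9 libraries, so no p-value is given. The FGF ligands Fgf9 and Fgf15 rose too, Fgf15 from 0.484 and 0.0551 to 4.28 and 4.49 CPM. Thbs1, a matrix glycoprotein that activates TGF-beta, had the largest gain in CPM of any gene called, from 586 and 544 to 1493 and 1399 CPM (1.36 ± 0.07 SE; edgeR, adjusted p = 4.2e-11).

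Axon guidance genes, which steer growing nerve fibres, followed. Of 16 Slit, Robo, netrin, Unc5 and Dcc genes, 6 were at 1 CPM or more with DMSO and 10 with Isx-9, and 5 of the 6 rose (3 without Isx-9 replicate 1). Ntn1, the attractant netrin, went from 0 counts to 13.4 and 10.6 CPM (at least 146-fold higher), Ntng2 from 0 counts to 8.22 and 7.23 CPM, and Robo3 from 1 read to 14.2 and 12.8 CPM. Semaphorins, plexins and neuropilins had 11 of 21 members higher and 4 lower (2 lower with library size alone, 2 with the filter of 1 CPM in all 4 libraries and 1 without Isx-9 replicate 1). Plxnc1, a plexin under 1 CPM in DMSO, went from 3 reads to 10.4 and 4.79 CPM. The Eph family, whose receptors sort stem cells and Paneth cells along the crypt, was divided: 4 of 13 expressed members rose and 5 fell, and its median log2 fold change of -0.07 was 0.05 with library size alone. Its count of falls was 2 under that scaling, 2 with the filter of 1 CPM in all 4 libraries, 3 by DESeq2 and 2 when either DMSO replicate 1 or Isx-9 replicate 1 was left out. Epha8 (9.32 and 7.23 CPM), Efna5 (4.88 and 4.34 CPM) and Ephb6 (5.33 and 3.59 CPM) had 0 counts with DMSO.

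Adhesion molecules changed in both directions. The cadherins went from 3 to 8 of 16 members at 1 CPM or more, while of the 3 expressed in DMSO 2 fell and 0 rose. Cdh3, P-cadherin, stood at 0.646 and 0.386 CPM with DMSO and at 42.4 and 45.3 CPM with Isx-9. Its log2 fold change was 6.39 ± 0.24 (SE, edgeR). Cdh3 could pass the low-count filter only through the Isx-9 libraries, so no p-value is given. Cdh2, N-cadherin, went from 1 read to 7.77 and 3.99 CPM. The epithelial Cdh1 fell from a mean of 1050 to 847 CPM. Clustered protocadherins, which give neurons their individual surface, went from 4 to 13 of 49 members. Their isoforms share constant exons, so counts of single isoforms such as Pcdhga5 (0.484 and 0.275 against 5.28 and 3.39 CPM) are uncertain. The 7 expressed members of the neurexin, neuroligin, contactin and leucine-rich synaptic family all rose, and the family went from 7 to 17 of 34. Nrxn2 reached 8.22 and 5.99 CPM and Ncam1 4.28 and 2.39 CPM from 0 counts. Lingo1 went from 3 reads to 18.9 and 12.8 CPM. Claudins, the proteins of tight junctions, had 4 of 7 expressed members lower and 1 higher. Cldn7 fell from 445 and 418 to 234 and 257 CPM and Cldn15 from 190 and 199 to 102 and 119 CPM.

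Matrix genes rose from low levels. Of 42 collagens, 5 were at 1 CPM or more with DMSO and 19 with Isx-9, and 4 of the 5 rose. Col8a2 went from 2 reads to 9.27 and 6.04 CPM, and Col5a1 from 2 reads to 8.87 and 3.34 CPM, with the replicates of Isx-9 unlike each other. The summed level of the collagens was 17.6 and 16.3 CPM with DMSO and 155 and 101 CPM with Isx-9. The fibroblast marker list given above was higher in the same libraries, with Dcn and Col3a1 at or near 0, and the part of such cells in these values was not tested. Laminins, which build the basement membrane beneath the epithelium, had 4 of 5 members higher (2 when DMSO replicate 2 or Isx-9 replicate 1 was left out), with Lama5 at 88 and 58.2 against 179 and 182 CPM. Lamb1, under 1 CPM in DMSO, rose from 0.915 and 0.441 to 28.3 and 15.7 CPM. Of the matrix proteases Mmp, Adam and Adamts, 13 of 22 rose and 1 fell. Timp3, an inhibitor of these enzymes, rose from 31 and 26 to 132 and 136 CPM (2.23 ± 0.10 SE; edgeR, adjusted p = 5.5e-12).

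Many genes of electrical excitability stood at low levels in the stem cells and were higher with Isx-9. Voltage-gated sodium and calcium channels open on depolarisation and let cations in. They went from 7 to 18 of 34 members at 1 CPM or more, and of the 7 expressed in DMSO 5 rose and 1 fell. Of 14 silent members 2 were switched on. Cacna1b, the N-type calcium channel of nerve endings, went from 0.0538 and 0.165 to 13.6 and 13 CPM, and Cacna1g from 1 read to 7.82 and 6.69 CPM. Potassium channels, which restore the resting potential, went from 18 to 38 of 79, with 10 of 18 higher and 4 lower and 8 of 39 silent members switched on. Kcnj4 reached 8.27 and 8.08 CPM from 0 counts. Abcc8, the sulfonylurea receptor of the potassium channel that couples glucose to insulin release, rose from 1.94 and 1.6 to 60.5 and 51.9 CPM (4.98 ± 0.18 SE; edgeR, adjusted p = 5.5e-13).

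Receptors for transmitters rose with the channels. Of the ligand-gated channels 9 of 13 expressed members rose and 0 fell, and the monoamine, acetylcholine, purine and glutamate receptors went from 9 to 21 of 38 members, with 6 of 9 higher. Gabra4, a GABA receptor subunit, reached 5.13 and 2.99 CPM from 0 counts, Grm4, a glutamate receptor, rose from 0.0538 and 0.22 to 13.1 and 11.9 CPM, and the histamine receptor Hrh1 went from 2 reads to 7.77 and 4.84 CPM. Gabbr1, a subunit of the metabotropic GABA receptor, rose from a level already present, 21.2 and 17.1 against 91.8 and 98.7 CPM (2.31 ± 0.12 SE; edgeR, adjusted p = 2.1e-11). Orphan and adhesion G protein-coupled receptors went from 26 to 48 of 86 members, with 11 higher (7 without Isx-9 replicate 1) and 4 lower among the 26. Adgrl1, a latrophilin of the synapse, rose from 29.4 and 23.6 to 156 and 154 CPM, and Celsr1, a receptor of planar cell polarity, from 18.6 and 13.6 to 77.1 and 76.6 CPM. Regulators of G protein signalling shorten the signal of such receptors, and 5 of 6 expressed members rose. Of the 90 olfactory, vomeronasal and taste receptors that were counted, 1 was at 1 CPM or more in each group. Only 3 were tested, too few to compare their calls with those of the other receptors. Of these 0 were called by edgeR, with 0 at an unadjusted p under 0.05 and 0 called by DESeq2.

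Enzymes that set the level of intracellular signals were mostly higher. Phosphodiesterases and adenylyl cyclases, which break down and make cyclic nucleotides, had 11 of 18 members higher and 1 lower. Pde10a, abundant in the striatum, reached 5.33 and 5.09 CPM from 0 counts (at least 63.8-fold higher), Pde8a rose from 0.754 and 2.2 to 27.8 and 24.5 CPM, and Adcy5 from 0.323 and 0.386 to 9.96 and 4.89 CPM. Dual-specificity phosphatases, many of which switch off MAP kinases, had 8 of 17 members higher and 0 lower, with Dusp22, under 1 CPM in DMSO, at 0.377 and 0 against 7.52 and 7.83 CPM. Receptor tyrosine phosphatases had 7 of 14 higher and 2 lower (0 lower with library size alone or with the filter of 1 CPM in all 4 libraries, and 1 when either Isx-9 replicate was left out), and Ptpru rose from 2.64 and 2.92 to 49.9 and 45.2 CPM (4.09 ± 0.17 SE; edgeR, adjusted p = 2.5e-12).

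The machinery of vesicle release was partly present in DMSO. Of 87 synaptotagmins, SNAREs and synaptic vesicle proteins, 51 were at 1 CPM or more with DMSO and 70 with Isx-9, and 27 of the 51 rose while 7 fell (4 without Isx-9 replicate 1). The synaptotagmin Syt9, a calcium sensor of hormone release, reached 12.6 and 9.78 CPM from 0 counts (at least 137-fold higher), and Syt5 went from 2 reads to 4.73 and 4.74 CPM. Cytoskeletal genes of neurons had the highest median of any family with 10 or more expressed members, 2.22 on the log2 scale over 13 members, of which 9 rose and 1 fell (0 with library size alone or without Isx-9 replicate 2). Dpysl3, a growth cone protein, rose from 0.377 and 0.0551 to 26.9 and 22.5 CPM. Kinesins that carry cargo along axons rose: Kif1a from 0.108 and 0.331 to 42.3 and 25.4 CPM and Kif5c from 3 reads to 21.3 and 10.9 CPM. Both were under 1 CPM in DMSO. Of the 27 kinesins at 1 CPM or more in both DMSO libraries, many of which serve the mitotic spindle, 11 fell and 5 rose, and the falls were 5 with library size alone, 6 with the filter of 1 CPM in all 4 libraries and 6 without Isx-9 replicate 2. Tubulins divided by isotype, with Tubb6 (4.04 and 2.75 against 68.7 and 58.6 CPM), Tuba1a (7.32 and 11.5 against 89 and 72.4 CPM), Tubb4a and Tubb3 higher. Tubulin genes are alike in sequence, so reads may have been divided among them. Espn, which bundles actin in microvilli and sensory hairs, had the largest log2 fold change among called genes at 10 CPM or more in both DMSO libraries, from 17.2 and 12.5 to 88.8 and 89.8 CPM (2.58 ± 0.13 SE; edgeR, adjusted p = 1.1e-10). RNA-binding proteins of neurons included Elavl3, from 0.377 and 0.441 to 18 and 16.1 CPM, Celf5, from 0.215 and 1.05 to 24.2 and 22.3 CPM, and Nova1, from 0 counts to 4.28 and 3.79 CPM.

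Families of ribosome production, translation, splicing and protein turnover had large shares of lower members. Shares of all genes matched to the level of the members were not counted. Ribosome biogenesis factors process ribosomal RNA in the nucleolus, and 44 of 48 fell while 0 rose (91.7% lower, median log2 fold change -0.46, all members between -0.93 and -0.09). This share was above both the background of 26.3% and the 59.5% of genes over 100 CPM. Noc4l fell from 95 and 86.9 to 45 and 50.7 CPM, Utp20 from 175 and 173 to 97 and 98.1 CPM, and Ubtf, the factor that activates ribosomal RNA genes, from 221 and 213 to 124 and 123 CPM (-0.82 ± 0.08 SE; edgeR, adjusted p = 6.3e-08). With library size alone 36 of the 48 fell and the median was -0.34. Polr1a, the large subunit of RNA polymerase I, fell in step, from 165 and 168 to 93.6 and 107 CPM. Of 28 polymerase subunits 14 fell and 1 rose, and 9 fell with library size alone, 9 without Isx-9 replicate 1 and 8 without Isx-9 replicate 2.

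Cytosolic ribosomal proteins changed by a small amount. Of 81 expressed members 71 fell and 1 rose (87.7% and 1.23%), with a median of -0.28, and their summed level was 48264 and 44680 CPM with DMSO and 37860 and 39267 CPM with Isx-9. This count moved with the scaling and with single libraries: 22 fell with library size alone, where the median was -0.15, 34 with a filter of 1 CPM in all 4 libraries, 31 when Isx-9 replicate 1 was left out and 47 when DMSO replicate 1 was. The exception was Rps4l, a copy of Rps4x, which rose from 19.6 and 16.9 to 44.3 and 33.6 CPM, a value that is uncertain because the 2 genes are alike. Of 77 mitochondrial ribosomal proteins 51 fell and 0 rose (32 with library size alone and 30 without Isx-9 replicate 1), and Mrps34 fell from 46 and 46.2 to 23.7 and 22.5 CPM. The enzymes that load transfer RNA, the aminoacyl-tRNA synthetases, had 26 of 37 members lower and 0 higher. Vars fell from 505 and 478 to 309 and 296 CPM and Rars from 203 and 188 to 113 and 108 CPM.

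Translation factors mostly fell, 41 of 64 against 3 that rose. That share, 64.1% lower, was near the 59.5% of all tested genes above 100 CPM. The elongation factor Eef1a1 had the largest loss in CPM of any gene called, from 13191 and 12399 to 10399 and 10629 CPM (-0.28 ± 0.07 SE; edgeR, adjusted p = 0.00363). Its call was lost with library size alone (-0.16). Relatives of the common factors with low levels in DMSO went the other way. Eif5a2 rose from 0.915 and 0.606 to 26.1 and 23.3 CPM and Eif4e3 from 1.94 and 3.03 to 28.2 and 29.3 CPM. Spliceosome proteins had 55 of 76 members lower and 1 higher (36 lower with library size alone and 36 without Isx-9 replicate 2), with Hnrnpa0 and Hnrnpd each at -0.76. Of 36 proteasome subunits 31 fell and 1 rose. Of the catalytic subunits of the immunoproteasome, Psmb8 rose from 0.377 and 1.1 to 5.18 and 6.14 CPM and Psmb9 from 3.98 and 4.02 to 8.37 and 7.38 CPM, the latter call lost without Isx-9 replicate 1, and Psmb10 fell from 30.1 and 24.1 to 12.2 and 12.4 CPM. The chaperonin and prefoldin set had 10 of 14 lower and 1 higher, 6 lower without Isx-9 replicate 1. Among other chaperones, Hspd1 fell from 1298 and 1386 to 811 and 838 CPM, while Hspa5 of the endoplasmic reticulum rose from 798 and 792 to 992 and 1002 CPM.

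**Figure D4:**
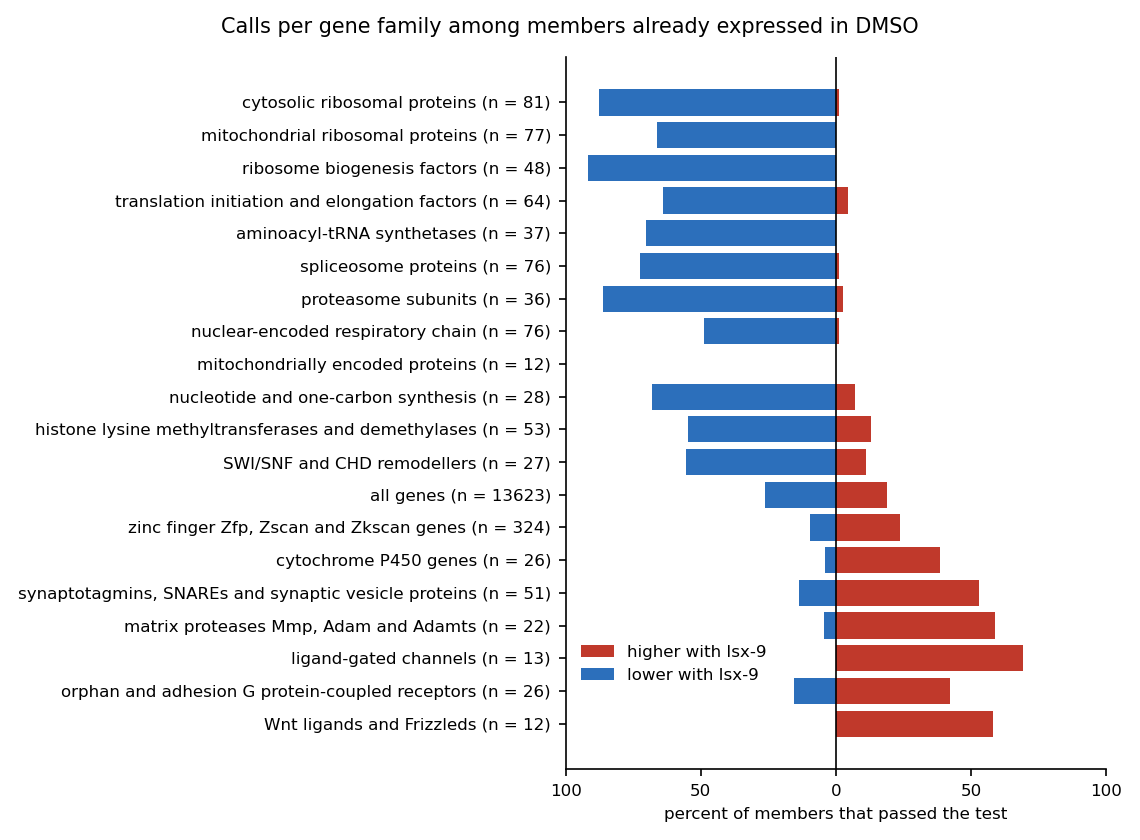
Bars give, for members at 1 CPM or more in both DMSO libraries (n in brackets), the percent that rose (right) and fell (left). The shares for all genes are 18.9% and 26.3%, ribosome biogenesis factors reach 91.7% lower, and ligand-gated channels reach 69.2% higher with none lower.

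Metabolic genes moved in several ways. Of 76 nuclear-encoded subunits and factors of the respiratory chain 37 fell and 1 rose, a count that was 14 with library size alone, 22 with the filter of 1 CPM in all 4 libraries and 11 without Isx-9 replicate 1. The 12 expressed protein genes of the mitochondrial genome included 0 calls in either direction, by edgeR's test at an adjusted p under 0.05, with 1 at an unadjusted p under 0.05 and 1 called by DESeq2, and summed to 66042 and 71173 CPM with DMSO and 66821 and 76003 CPM with Isx-9. In the citric acid cycle 11 of 25 fell and 1 rose (6 lower with library size alone and 5 without Isx-9 replicate 1). Of the enzymes of nucleotide and one-carbon synthesis, which feed DNA replication, 19 of 28 fell and 2 rose (4 with library size alone), and Shmt1 fell from 188 and 199 to 107 and 104 CPM. Among glycolytic enzymes, Ldhb rose from 0.161 and 0.331 to 14.5 and 10 CPM, Eno2, the neuronal enolase, from 0.215 and 0 to 3.39 and 2.39 CPM, and Hk1 from 27.6 and 21 to 96.1 and 96.2 CPM, while the family had 5 of 21 higher and 7 lower. The rises numbered 3 without Isx-9 replicate 1 and 3 without Isx-9 replicate 2, and the falls 4 with library size alone, 4 with the filter of 1 CPM in all 4 libraries and 3 without Isx-9 replicate 1.

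Cytochrome P450 genes, enzymes of sterol and drug metabolism, had 10 of 26 members higher (6 without DMSO replicate 1) and 1 lower, a fall that was lost in 9 of the 10 alternative fits. Cyp27a1, which oxidises cholesterol side chains, rose from 3.77 and 3.97 to 17.4 and 16 CPM, and Cyp2d22 from 0.215 and 0.937 to 6.18 and 8.53 CPM. The sulfotransferases Sult4a1, found mainly in brain, and Sult2b1 rose from 0.269 and 0.882 to 31.8 and 25.1 CPM and from 3.71 and 4.3 to 18.2 and 21.1 CPM. Of 214 expressed solute carriers 69 rose and 45 fell, 32.2% and 21%, where the background is 18.9% and 26.3%. The share that rose compares with 29.9% of all tested genes at 1 to 10 CPM and 18.2% at 10 to 100 CPM. The share that fell compares with 2.7% and 26.9% at those levels. The falls numbered 26 with library size alone, 28 with the filter of 1 CPM in all 4 libraries and 26 without Isx-9 replicate 1. Amino acid and transmitter carriers such as Slc6a15 (5.48 and 3.84 CPM) and Slc6a17 (6.18 and 2.1 CPM) had 0 counts with DMSO. Lysosomal genes included Lipa, the acid lipase, from 6.14 and 6.23 to 31.9 and 29.7 CPM, and Ctsl, from 37.5 and 34.7 to 80.3 and 77.1 CPM, with 13 of 43 members of the class higher and 9 lower (4 lower with library size alone and 4 without Isx-9 replicate 1).

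Imprinted genes, which are expressed from the chromosome of 1 parent and are often silenced after birth, had 11 of 24 expressed members higher and 3 lower (1 lower with library size alone, with the filter of 1 CPM in all 4 libraries or without either Isx-9 replicate). Igf2 reached 4.83 and 2.89 CPM from 0 counts (at least 47.3-fold higher). H19, Dlk1 and Sgce each went from 1 read over both DMSO libraries to 4.19 and 2.69, 4.24 and 2.54, and 9.52 and 7.98 CPM. Germline genes went from 5 to 14 of 30 members at 1 CPM or more. Tdrkh, of the pathway that silences transposons, rose from 3.39 and 4.13 to 29.2 and 22.6 CPM, Tdrd5 from 0.215 and 0.22 to 11.6 and 9.93 CPM and Tex15 from 1 read to 5.78 and 2.15 CPM. Of the 4 germ cell markers, Dazl and Dppa3 stood at or below a mean of 0.125 CPM in each group and were not tested. Sycp3, at means of 1.81 and 3.69 CPM, and Ddx4, at 0.247 and 0.698 CPM, did not pass edgeR's test, with 1 of them at an unadjusted p under 0.05 and 0 called by DESeq2. The list summed to 1.18 and 2.98 CPM with DMSO and 5.78 and 3.29 with Isx-9, and its part in the rise of germline genes was not tested. MHC genes had 6 of 15 members higher and 0 lower. H2-Q7 rose from 9.42 and 11.1 to 64.4 and 67 CPM and H2-Ab1, of class II, from 0.108 and 0.882 to 9.47 and 8.28 CPM. The H2-Q genes are close copies, so their separate values are uncertain.

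The series also holds single-cell libraries of another organoid line, a Chgb-mCherry reporter, after 6 days of the same doses, with 1 library per treatment and therefore no test. Summed over all 11632 cells with DMSO and 12201 with Isx-9 (132150411 and 116046871 UMIs, 42 barcodes shared between the libraries), these cover every cell type of the organoid and not the stem cells alone. For the classes of calls a gene needed at least 100 UMIs over both libraries. A gene silent in DMSO reaches this mostly through the Isx-9 library. The classes were therefore limited to genes at 1 CPM or more in both DMSO libraries at 6 hours. Of those that had risen at 6 hours, 2435 of the 2491 present in the matrices were kept, and 90.4% had a higher CPM with Isx-9 at 6 days. Of those not called the share was 68.5%, and of those that had fallen 39.5%. The 2 times were measured in different lines, cells and assays.

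**Figure D5:**
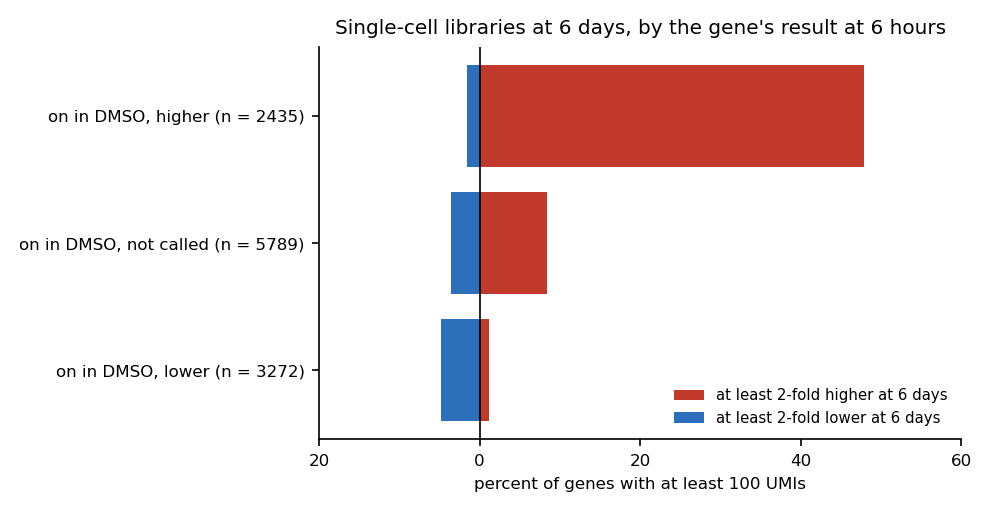
Bars give the percent of genes at least 2-fold higher (right) or lower (left) with Isx-9 in the single-cell libraries at 6 days, by the result of the gene at 6 hours; n counts genes with at least 100 UMIs. All 3 classes were at 1 CPM or more in both DMSO libraries at 6 hours, and folds are on the scale of log2(CPM + 1). Of 2435 genes that had risen 1167 were at least 2-fold higher, and of 3272 that had fallen 38 were.

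At 6 days Sox11 stood at 0.431 CPM with DMSO (exact 95% counting interval 0.327 to 0.559) and 36 CPM with Isx-9 (34.9 to 37.1), and Shh at 0.242 CPM (0.166 to 0.342) and 20.6 CPM (19.8 to 21.5). Map2 was at 0.643 and 19.3 CPM, Kif1a at 2.31 and 48.2 CPM, Tet1 at 1.46 and 20.6 CPM and Cdh3 at 0.25 and 17.8 CPM. Other early genes were less marked. Gli1 was counted as 0 UMIs with DMSO, and was at 0.638 CPM (0.501 to 0.801) with Isx-9. The deposited matrices list 17527 genes with DMSO and 20063 with Isx-9. A gene missing from either was counted as 0, so this 0 may be an absent entry. Celsr1 was at 2.58 and 5.95 CPM. The growth families divided at the later time. Of 48 ribosome biogenesis factors 3 were higher at 6 days, with a median log2 fold change of -0.36, and of 79 cytosolic ribosomal proteins 9, with a median of -0.17. Ncl was at 820 CPM (816 to 825) with DMSO and 615 CPM (610 to 619) with Isx-9, and Pigr at 759 and 363 CPM. Spliceosome proteins, at a median of -0.02, and proteasome subunits, at -0.03, had values near 0, and Ubtf was at 70.4 CPM (69 to 71.9) and 72 CPM (70.5 to 73.6). The median for all tested genes with at least 100 UMIs was 0.31, a set that includes genes silent in DMSO. It was 0.22 for genes at 1 CPM or more in both DMSO libraries and not called at 6 hours. The families were limited to members with at least 100 UMIs and not by their DMSO level, and the single genes by neither.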

How the data were processed

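Whole-number counts per Ensembl gene were deposited by the authors for the 4 bulk libraries. Per the submitters' processing notes the tools included Trim Galore 0.6.4, HISAT2, HTSeq 0.12.4 and DESeq2 1.24.0, on GRCm38. The annotation release, strand setting and aligner options are not given in the sources used here. NEBNext Ultra, the kit in the labels, does not mark strand, so reads of overlapping and antisense genes cannot be told apart. Symbols came from the authors' deposited table of log2 fold changes and adjusted p-values, in which 4128 of the genes tested here were higher and 2741 lower, with 6844 called in the same direction by both analyses. The single-cell counts were deposited by the authors as matrices of genes by cell barcode, made per the submitters' processing notes with Cell Ranger 3.1.0 and Seurat 3.1.5; they were summed over all cells, with no removal of doublets.

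Counts were fitted with edgeR 4.0.16 in R 4.3.3 (filterByExpr, TMM factors, robust quasi-likelihood test, treatment as the only term, Benjamini-Hochberg adjusted p under 0.05 over all tested genes). Levels are CPM of the TMM-scaled library totals. The 84 gene families were defined by symbol. Families, members and lists were chosen with earlier results of these data known. Genes named were the 12 highest and 12 lowest log2 fold changes at 5 CPM or more, the 10 highest and lowest among genes at 10 CPM or more in both DMSO libraries, the 10 largest gains and losses in CPM, up to 4 called members per family at 2 CPM or more with the largest changes, and a fixed list of stem cell and chromatin genes. Predicted genes and numbered clones were left out of the rankings over all genes. From the named set the genes described were picked by family, with marker genes added. Cdh1 and Nop56 were chosen after their values were seen. Intervals and floors (95% exact; 3 counts over the group) cover counting error only. Alternatives were DESeq2 1.42.0, RLE size factors, library size alone, no low-count filter, a filter of 1 CPM in all 4 libraries, the replicate number as a block, and leaving out each library. Fewer than 80% of the switched-on coding genes had an entry in the promoter table, so a comparison of promoter composition between gene classes was void and is not given. Some channel genes are not reported here.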

Additional observations from a re-analysis of the deposited data

How the results depend on the processing

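None of the 10 alternative fits turned the direction of a named gene: of 3586 pairs of gene and alternative, 3493 kept their call, 90 lost it and 3 gained it, and 30 of the losses came without Isx-9 replicate 1. No gene called in the report's fit was called in the opposite direction by any of them. Of the counts over all genes, the 4813 higher became 3100 with a filter of 1 CPM in all 4 libraries, which tests fewer genes, and ranged from 3539 to 4798 when a library was left out. The 3597 lower became 2168 with library size alone and ranged from 2149 to 3441 when a library was left out. The lowest values of both came without Isx-9 replicate 1, and the cause was not tested. The number of genes higher at least 2-fold with Isx-9 was 3360, and 1295 with the filter of 1 CPM in all 4 libraries and 2655 to 3466 with a library left out. The number of genes lower at least 2-fold with Isx-9 was 152, 101 by DESeq2, 77 with the filter of 1 CPM in all 4 libraries, 85 with library size alone and 90 to 215 with a library left out; the cause was not tested. The 461 switched-on genes became 709 with 0.5 CPM and 93 with 5 CPM as the level to reach. 

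With the replicate number as a block, 4695 genes were higher and 3426 lower, with 3275 genes higher at least 2-fold with Isx-9 and 131 genes lower at least 2-fold with Isx-9. The labels do not say that a replicate number marks a shared culture or day, so the numbers were not taken as a pairing. Deviations of libraries with the same number had a correlation of 0.011 over all tested genes.

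With 2 libraries per group the spread is estimated from few values, and a fall of the size seen in ribosomal proteins lies near the shift between scalings.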

Other observations

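Gene length differed between the classes of genes, as a description with no test. Spans were taken from the RefSeq annotation, for protein-coding genes only. The median was 35.5 kb for the 424 switched-on genes of that kind and 32.3 kb for genes that rose from 1 CPM or more in DMSO. It was 20.2 kb for those that fell and 22.3 kb for those not called. The order of higher over lower held within each range of DMSO level: 25.3 and 14.2 kb at 1 to 10 CPM, 41.7 and 16.9 kb at 10 to 100 CPM, and 47.2 and 25.1 kb above 100 CPM. Of the 461 switched-on genes 445 matched the annotation, and of these 424 were protein-coding and 19 were long noncoding RNAs.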
